A study of Homo sapiens with 6 samples.

Results

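The genes described here are 35 genes of the ATF4 amino acid stress response, chosen by name from the known biology of the pathway. They were chosen with earlier results of these data known. Their symbols were matched to the Ensembl gene IDs of the count data, and each of the 35 matched 1 of the 58302 genes listed. RNA was sequenced from MDA-MB-231 cells, a human breast cancer line, that expressed either a control shRNA or Smyca shRNA #1, the latter cloned in the pLKO.1 vector. Smyca is a long non-coding RNA, and the comparison addressed how its knockdown changes the transcriptome. Each group had 3 biological repeats, named here control replicates 1 to 3 and Smyca knockdown replicates 1 to 3. Both groups were 1 cell line with 1 shRNA each, so an effect of Smyca loss cannot be told apart from another effect of this shRNA.

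ATF4 is a transcription factor whose mRNA is translated more efficiently when eIF2alpha is phosphorylated, an event called the integrated stress response that follows amino acid shortage, heme shortage, viral RNA or unfolded protein in the endoplasmic reticulum. ATF4 pairs with C/EBP family proteins on composite C/EBP-ATF sites and switches on genes that import amino acids, make them and charge tRNAs. It also switches on genes that end the response (PPP1R15A, TRIB3) or drive cell death if stress persists (DDIT3, CHAC1). Because ATF4 is controlled mainly by translation, its own mRNA level is an incomplete measure of its activity.

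Of the 35 genes, 27 had at least 1 promoter window in the RefSeq sequences of GRCh38.p14, each reaching from 250 bases before the transcript start to 50 after it. The core of the C/EBP-ATF site, TGATGNAA, was searched on both strands and lay in a window of 8 of those 27 genes (29.6%), against 4.46% of all 27305 genes with a window. The genes were ASNS, ATF3, CEBPG, CHAC1, SLC1A4, SLC1A5, SLC3A2 and SLC7A1. The CRE sequence TGACGTCA was found in PPP1R15A alone (3.70% of these genes, 2.25% of all genes), and the E-box CACGTG in ALDH18A1, ATF4, SLC1A5 and SLC7A5 (14.8%, against 8.77% of all genes). No match of a motif overlapped a match of another. A match is a description of the sequence only, and binding was not measured in these libraries. The sequences below are 30 bases long, lie wholly before the transcript start, read 5′ to 3′ on the strand that carries the motif, and have the motif in capitals. They are shown because they include 2 genes whose groups separated (ATF3 and PPP1R15A) and 2 whose knockdown libraries were far apart (CHAC1 and ASNS).
ATF3 (chr1:212565205-212565234, plus strand, motif from 191 bases before the start): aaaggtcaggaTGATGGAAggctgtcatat
ASNS (chr7:97872458-97872487, minus strand, motif from 68 bases before the start): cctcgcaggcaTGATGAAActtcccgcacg
CHAC1 (chr15:40953251-40953280, minus strand, opposite to the gene, motif from 209 bases before the start): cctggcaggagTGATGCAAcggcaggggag
CEBPG (chr19:33374060-33374089, plus strand, motif from 42 bases before the start): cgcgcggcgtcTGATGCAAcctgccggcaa
SLC1A5 (chr19:46784893-46784922, minus strand, motif from 97 bases before the start): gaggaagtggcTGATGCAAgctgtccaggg
PPP1R15A (chr19:48872352-48872381, plus strand, CRE from 58 bases before the start): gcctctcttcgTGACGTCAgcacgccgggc

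The libraries held between 14999307 and 16501085 counts assigned to genes. Smyca is listed under the gene symbol MIR23AHG, at 25.0, 19.5 and 22.0 counts per 1000000 (CPM) in the control and 10.5, 6.97 and 5.61 in the knockdown, without overlap (log2 fold change 1.53 ± 0.26 SE, adjusted p = 0.111). This and every adjusted p below, where no other tool is named, comes from the quasi-likelihood test of edgeR with adjustment after Benjamini-Hochberg. All CPM values are counts divided by the library size after TMM normalization. Of the 16 mesenchymal or basal markers listed, 15 passed the filter on low counts and were tested, VIM at 71.2 to 305 CPM. SPARC did not pass, at 0.677 CPM or below, and the luminal markers ESR1 and PGR were at 0.192 CPM or below. Epithelial markers were also counted, GRHL2 at 1.08 CPM or below and the others in every library, including KRT8 at 4249 to 7408, EPCAM at 236 to 336 and CDH1 at 71.5 to 300 CPM. Among markers of gut and liver epithelium, HNF4A was at 65.4 to 194 and VIL1 at 220 to 501 CPM, SERPINA1 and CDX2 were at 6.08 CPM or above in every library, LGALS4 and CDH17 at 4.25 or below, and ALB, APOA1, AFP, CDX1, KRT20 and GPA33 at 0.370 or below. The mesenchymal markers of the labelled line were thus present together with epithelial markers that do not define such a line. In summed level, the 16 mesenchymal markers lay between 1805 and 2953 CPM in the control and 1583 and 2126 in the knockdown, and the 11 epithelial markers between 7390 and 8773 and between 7935 and 10697. Gene by gene, 13 of the 15 mesenchymal markers tested were higher in the control, with a median log2 fold change of 0.88. Of these 15, 10 had an unadjusted p under 0.05, edgeR called 0 and DESeq2 called 5, beside 2893, 4 and 850 of all 15075 genes. Of the 11 epithelial markers, 7 were higher in the control, with a median of 0.032. The part of cell composition in the results below was not tested. In bulk RNA, fewer cells of a type and less RNA per cell cannot be told apart.

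A gene was called when the ratio of control to knockdown was at least 1.5 or at most 0.66 with an adjusted p under 0.05. Of the 35 genes, 34 passed the filter on low counts, and 0 of the 34 were called, in a fit in which 4 of 15075 genes (0.0265%) were. The unadjusted p was under 0.05 for 9 of the 34, with 6 higher and 3 lower in the control, and for 2893 of the 15075 genes. DESeq2, run as an alternative, called 4 of the 34 (ALDH1L2, ATF3, DDIT3 and PPP1R15A, all higher in the control), beside 850 of all genes (5.64%). In direction, 24 of the 34 were higher in the control and 10 lower, beside 53.4% of all genes higher. With library totals in place of TMM normalization they were 28 and 6, beside 60.1%. Their median log2 fold change of control over knockdown was 0.24, against 0.036 over all genes. Leaving out Smyca knockdown replicate 1 raised that median to 0.54, and leaving out Smyca knockdown replicate 2 lowered it to 0.019. Without control replicate 3 it was 0.14.

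The 6 libraries separated completely for 10 of the 34 genes, 6 of them higher in the control (ATF3, DDIT3, CEBPB, PPP1R15A, ALDH1L2 and CTH) and 4 lower (SLC7A5, SLC7A1, ALDH18A1 and PYCR1). Over all genes tested, 12.4% separated with the control higher and 12.5% with the control lower, so the counts of 6 and 4 of 34 are near that background. An exact two-sided permutation test of 3 against 3 libraries cannot go below p = 0.1 for any single gene. The ratio was at least 1.5 for 10 of the 34 (15.6% of all genes) and at most 0.66 for 1, SLC7A5 (5.54% of all genes).

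**Figure D1:**
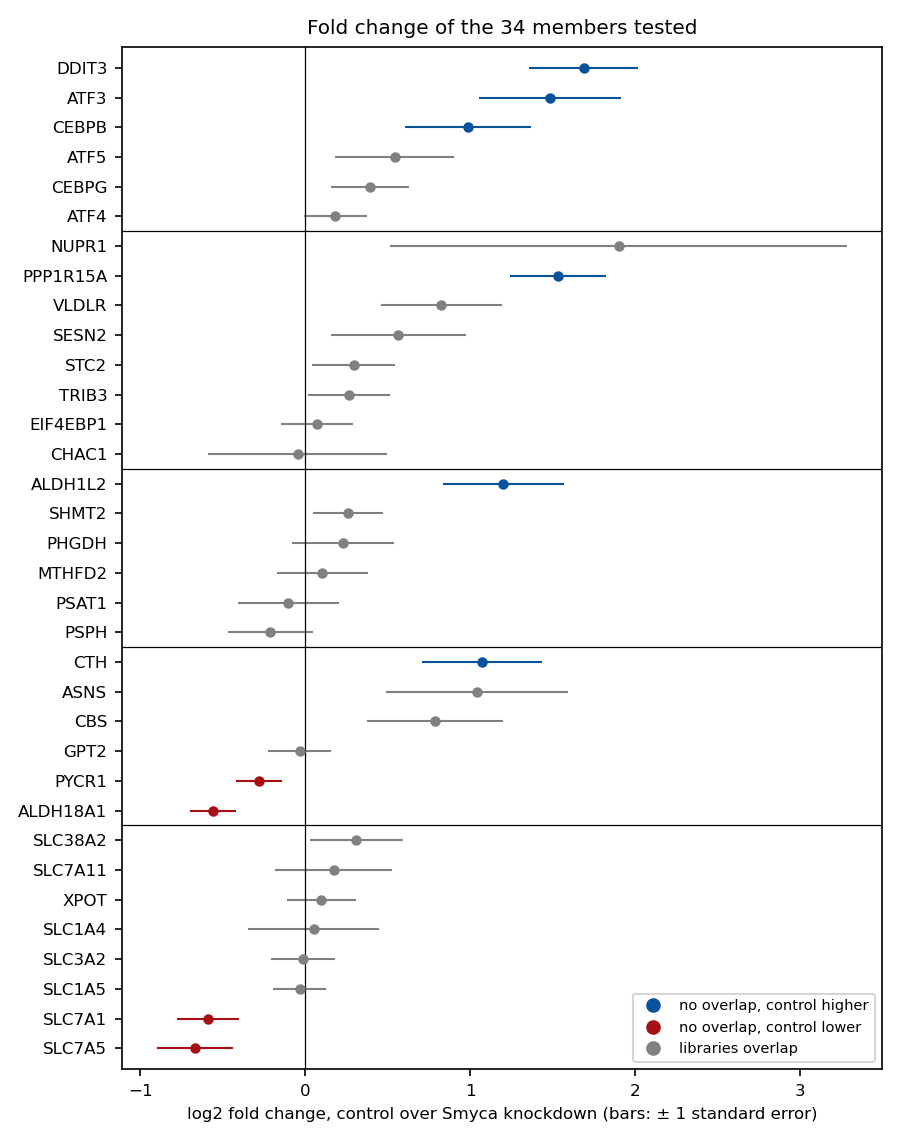
Log2 fold change of control over Smyca knockdown (x axis) for the 34 genes tested, in 5 blocks by role from factors at the top to transporters at the bottom, with bars of 1 standard error and colours for genes whose 3 control and 3 knockdown libraries did not overlap. DDIT3 (1.69), PPP1R15A (1.53) and ATF3 (1.49) stand to the right, SLC7A5 (-0.67), SLC7A1 (-0.59) and ALDH18A1 (-0.56) to the left, and the bar of NUPR1 is the widest.

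Among the transcription factors, ATF4 mRNA itself was close to even between the groups, while 2 stress-induced factors beside it had some of the largest fold changes of the whole set. All 6 factor genes tested were higher in the control by fold change, 3 of them without overlap, beside 12.4% of all genes. ATF4 stood at 743, 703 and 803 CPM in the control and 853, 563 and 565 CPM in the knockdown. Smyca knockdown replicate 1 was above each control library and the other 2 knockdown libraries were below each of them. The log2 fold change was 0.18 ± 0.19 SE (adjusted p = 0.628, edgeR).

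DDIT3, which encodes CHOP, a C/EBP family protein that promotes death under lasting stress, was at 57.9, 38.5 and 30.6 CPM in the control and 18.6, 8.30 and 12.5 CPM in the knockdown. Every control library was above every knockdown library, and the group means were 42.3 ± 14.0 and 13.1 ± 5.18 CPM (SD, n = 3 each). Its log2 fold change was 1.69 ± 0.33 SE, with an adjusted p of 0.111 by edgeR, which ranged from 8.38e-05 to 0.440 over the alternatives. Without control replicate 3, DDIT3 and PPP1R15A were called, 2 of the 34 genes beside 10.5% of all genes in that setting.

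ATF3, a factor that ATF4 induces and that binds CRE-like sites, was at 27.0, 18.6 and 39.1 CPM in the control and 12.1, 4.24 and 13.9 CPM in the knockdown. The groups did not overlap, and the lowest library was Smyca knockdown replicate 2 (log2 fold change 1.49 ± 0.43 SE, adjusted p = 0.140, edgeR). CEBPB, a dimer partner of ATF4, was at 167, 135 and 131 CPM in the control and 125, 39.0 and 54.5 CPM in the knockdown. Here the gap between the groups was narrow, since Smyca knockdown replicate 1 lay just under the lowest control library, and the log2 fold change was 0.99 ± 0.38 SE (1.62 without that library). The other 2 factor genes tested overlapped between the groups, with log2 fold changes of 0.39 ± 0.24 SE for CEBPG, another dimer partner, and 0.54 ± 0.36 SE for ATF5, a related factor. ATF5 depended on 1 library at a time: it was 0.83 and without overlap when control replicate 2 was left out, 0.94 and without overlap with the reads recovered from the FPKM column of that library (701 in place of 236 counts), and 0.25 when control replicate 3 was left out. JDP2-AS1, an antisense RNA at the locus of the ATF-like repressor JDP2, had 6, 6 and 17 counts in the control and 19, 3 and 5 in the knockdown and was not tested. The strand setting of the counting was not given in the sources used here, so its few counts cannot be told apart from those of overlapping transcripts.

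**Figure D2:**
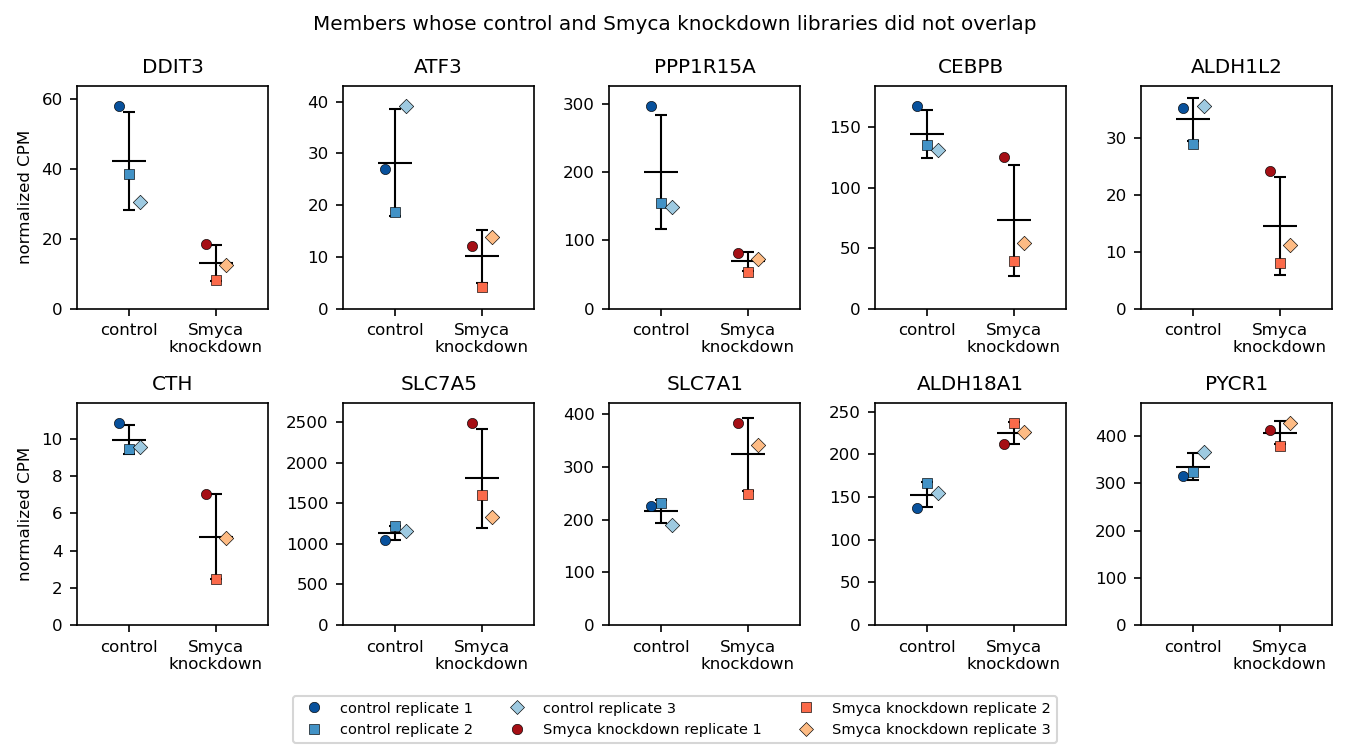
Normalized CPM (y axis, from 0) in the 3 control and 3 Smyca knockdown libraries for the 10 genes whose groups did not overlap, with the mean as a bar and the SD as whiskers. DDIT3, ATF3 and PPP1R15A have every knockdown library at most 18.6, 13.9 and 81.7 CPM, below the lowest control values of 30.6, 18.6 and 149, while the 4 genes on the right of the lower row are higher in the knockdown.

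The ratio of DDIT3 to ATF4 within a library was without overlap, at 0.0779, 0.0547 and 0.0381 in the control and 0.0218, 0.0148 and 0.0221 in the knockdown. The same held for PPP1R15A over ATF4, at 0.400, 0.221 and 0.186 in the control and 0.0958, 0.0964 and 0.128 in the knockdown. These are ratios of CPM, which do not allow for gene length, and only their change between libraries is read. The pairs were picked with the values known, and the share over all gene pairs was not computed. The ratios restate the values above and are no separate support. CHAC1 over ATF4 overlapped between the groups, at 0.0697 to 0.123 in the control and 0.0358 to 0.152 in the knockdown, and so did ASNS over ATF4. ATF3 over ATF4 was without overlap, at 0.0363, 0.0264 and 0.0488 in the control and 0.0142, 0.00755 and 0.0245 in the knockdown. CHAC1 over DDIT3 was lower in the control without overlap, at 0.953, 2.25 and 1.83 against 6.98, 2.43 and 4.31 in the knockdown.

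Among the feedback and stress regulators, 7 of 8 genes were higher in the control by fold change, beside 53.4% of all genes, and PPP1R15A was the 1 whose libraries separated (12.4% of all genes). PPP1R15A encodes GADD34, the inducible subunit that directs phosphatase to eIF2alpha and so ends the response. It was at 297, 155 and 149 CPM in the control and 81.7, 54.2 and 72.1 CPM in the knockdown, with control replicate 1 the highest of the 6 libraries. The log2 fold change was 1.53 ± 0.29 SE, and the adjusted p was 0.111 by edgeR, with a range of 4.90e-05 to 0.440 over the alternatives.

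CHAC1, an enzyme that breaks down glutathione, was at 55.2, 86.5 and 56.0 CPM in the control and 130, 20.1 and 53.8 CPM in the knockdown. Smyca knockdown replicate 1 was the highest and replicate 2 the lowest of all 6 libraries, a 6.45-fold spread within the knockdown, and the log2 fold change was -0.04 ± 0.54 SE. TRIB3, a pseudokinase that binds and restrains ATF4, had the same order, at 469, 416 and 478 CPM in the control and 509, 240 and 384 CPM in the knockdown. SESN2, a leucine sensor that restrains mTORC1, was at 97.7, 88.2 and 69.8 CPM in the control and 95.3, 23.9 and 53.5 CPM in the knockdown. Its knockdown libraries spanned 3.98-fold and its control libraries 1.40-fold, and its log2 fold change of 0.57 ± 0.41 SE was 1.13 without Smyca knockdown replicate 1 and 0.19 without replicate 2.

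NUPR1, a small chromatin protein induced by stress, was at 0.864, 0.492 and 28.6 CPM in the control and 5.90, 0.443 and 1.65 CPM in the knockdown. Control replicate 3 had 447 counts, against 14 and 8 in the other control libraries, so the 58.1-fold range within the control was wider than the 3.75-fold difference between the group means. The log2 fold change of 1.90 ± 1.39 SE turned to -1.97 without control replicate 3. The FPKM column of control replicate 2, which does not follow its counts, corresponds to 442 reads of NUPR1 in place of 8, and with those reads the log2 fold change was 2.78. Which value belongs to that library is not known, so neither a low level there nor a high level in control replicate 3 alone is read. Of the remaining regulators, log2 fold changes were 0.83 ± 0.37 SE for VLDLR, a lipoprotein receptor, 0.29 ± 0.25 SE for STC2, a secreted glycoprotein, and 0.07 ± 0.22 SE for EIF4EBP1, which blocks cap-dependent translation. All 3 overlapped between the groups.

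**Figure D3:**
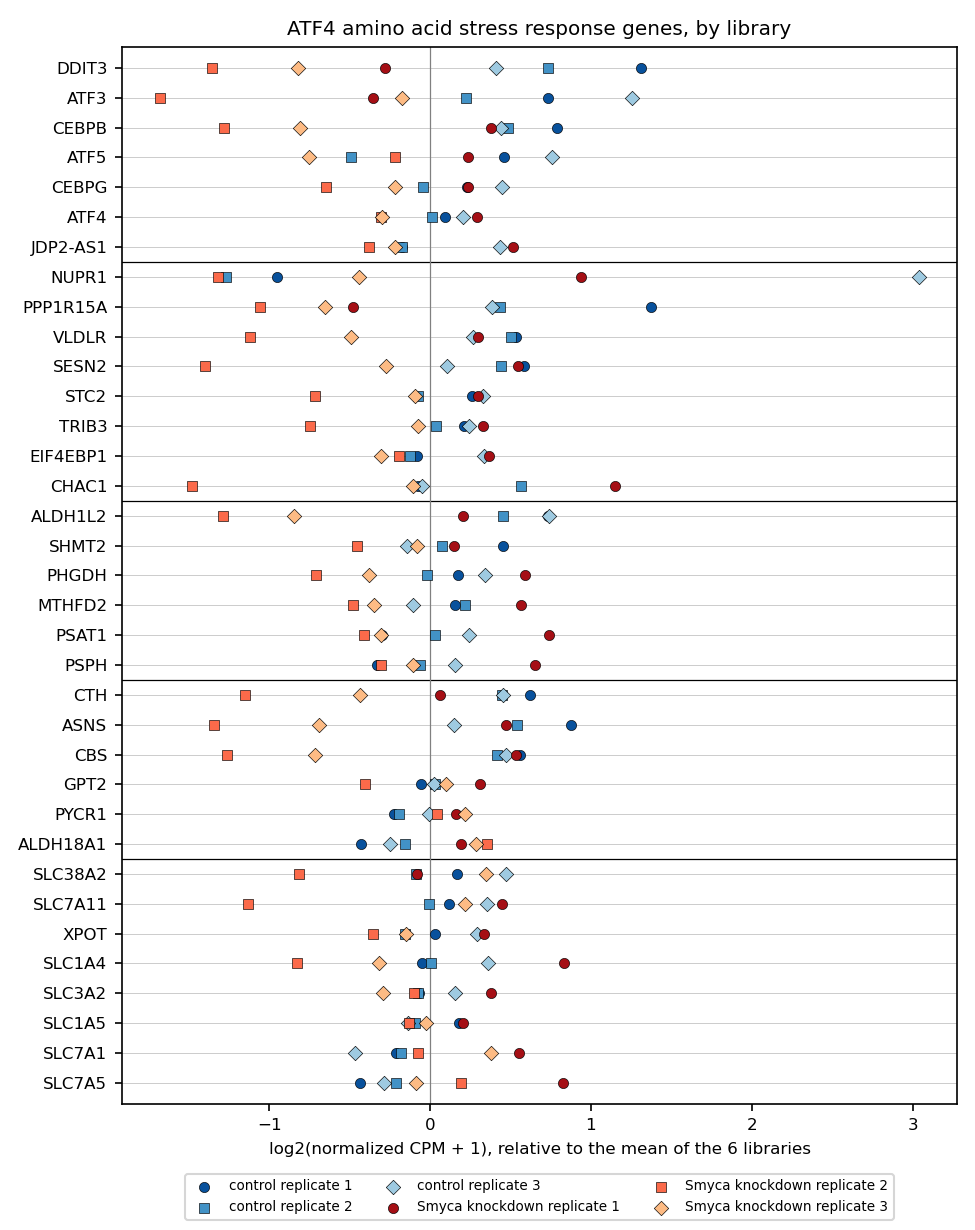
Log2(normalized CPM + 1) of each of the 35 genes in each of the 6 libraries, relative to the gene's mean over the libraries (x axis), with blue symbols for control and red to orange symbols for Smyca knockdown. In most rows the dark red circle (Smyca knockdown replicate 1) lies to the right of the orange-red square (replicate 2), while the blue symbols of most rows lie closer together, NUPR1 being the widest row.

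With all 6 libraries, the serine, glycine and folate enzymes of the group were close to even between the groups, apart from ALDH1L2. PHGDH, PSAT1 and PSPH make serine from a glycolysis intermediate, SHMT2 turns serine into glycine in mitochondria, and MTHFD2 and ALDH1L2 process the folate unit released. ALDH1L2 was at 35.4, 29.0 and 35.7 CPM in the control and 24.3, 7.98 and 11.2 CPM in the knockdown. No knockdown library reached the control range (log2 fold change 1.20 ± 0.37 SE, adjusted p = 0.148, edgeR).

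PHGDH was at 273, 238 and 306 CPM in the control and 364, 147 and 186 CPM in the knockdown, and PSAT1 at 221, 278 and 322 CPM in the control and 455, 205 and 220 CPM in the knockdown. In both, Smyca knockdown replicate 1 was above and replicate 2 below each control library. Log2 fold changes were 0.23 ± 0.31 SE for PHGDH, -0.10 ± 0.31 SE for PSAT1, -0.21 ± 0.26 SE for PSPH, 0.26 ± 0.21 SE for SHMT2 and 0.10 ± 0.27 SE for MTHFD2. Without Smyca knockdown replicate 1 they were, in this order, 0.70, 0.36, 0.13, 0.40 and 0.51. Without replicate 2 they were -0.018, -0.31, -0.40, 0.11 and -0.091. In all 6 of these enzymes Smyca knockdown replicate 1 was the highest and replicate 2 the lowest of the 3 knockdown libraries. Per kilobase of the gene length behind the deposited FPKM values, SHMT2 had the highest level of the 35 genes in the control (852 ± 182 CPM per kb, SD, n = 3) and JDP2-AS1 the lowest (0.262 ± 0.178). ATF4 ranked the fifth at 420 ± 28.2 CPM per kb, behind SLC38A2, SLC3A2 and SLC1A5, and the SDs of these 4 overlap.

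Of the 6 other amino acid enzymes, 3 had higher and 3 lower means in the control. ALDH18A1 and PYCR1, which act in sequence to make proline from glutamate, were higher in the knockdown without overlap, and CTH was higher in the control without overlap. ALDH18A1 was at 137, 166 and 155 CPM in the control and 212, 237 and 226 CPM in the knockdown. The groups were apart by more than the range within either of them, and the log2 fold change was -0.56 ± 0.14 SE (adjusted p = 0.125, edgeR, range over the alternatives 0.0146 to 0.440). PYCR1 was at 316, 323 and 367 CPM in the control and 413, 380 and 428 CPM in the knockdown, a smaller step (log2 fold change -0.28 ± 0.14 SE). The ratio of ALDH18A1 to PYCR1 overlapped between the groups, at 0.423 to 0.515 in the control and 0.513 to 0.624 in the knockdown. For PYCR1 the separation was lost with library totals in place of TMM normalization and with the reads recovered for control replicate 2.

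CTH, which makes cysteine from cystathionine, was at 10.9, 9.48 and 9.54 CPM in the control and 7.05, 2.47 and 4.69 CPM in the knockdown, without overlap (log2 fold change 1.07 ± 0.36 SE). CBS, which makes cystathionine, was at 42.1, 38.1 and 39.8 CPM in the control and 41.5, 11.2 and 16.8 CPM in the knockdown. Smyca knockdown replicate 1 was inside the control range and the other 2 libraries far below it (log2 fold change 0.79 ± 0.41 SE, 1.504 without replicate 1 and 0.45 without replicate 2). A near-identical second copy of CBS in the annotation took 23, 21 and 17 counts in the control and 13, 4 and 4 in the knockdown, against 177 to 683 counts for CBS, so the split of reads between the copies is uncertain.

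ASNS, the asparagine synthetase that is a classical ATF4 target, was at 9.56, 7.38 and 5.38 CPM in the control and 6.98, 1.27 and 2.58 CPM in the knockdown. Smyca knockdown replicate 2 had 20 counts of ASNS and replicate 1 had 110, a 5.51-fold difference in CPM, and the log2 fold change was 1.04 ± 0.55 SE. It was 1.94 without replicate 1 and 0.63 without replicate 2. GPT2, a mitochondrial alanine transaminase, was at 361 to 383 CPM in the control and 284 to 466 CPM in the knockdown (log2 fold change -0.03 ± 0.19 SE).

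Of the 7 amino acid transporters and XPOT, which exports tRNA from the nucleus, 4 had higher and 4 lower means in the control. SLC7A5, the light chain of the LAT1 transporter for large neutral amino acids, was at 1041, 1215 and 1155 CPM in the control and 2491, 1606 and 1325 CPM in the knockdown. Each knockdown library was above each control library, with Smyca knockdown replicate 1 the highest by far (log2 fold change -0.67 ± 0.23 SE, or -0.37 without that library, adjusted p = 0.179, edgeR). A pseudogene copy, SLC7A5P1, took 7.59 to 11.1 CPM. SLC3A2, the heavy chain of the same transporter, was even between the groups, with a log2 fold change of -0.01 ± 0.20 SE. The ratio of SLC7A5 to SLC3A2, another pair picked with the values known, restates this. It was apart, at 2.16, 2.54 and 2.06 in the control and 3.80, 3.42 and 3.23 in the knockdown.

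SLC7A1, a transporter of arginine and lysine, was at 226, 231 and 189 CPM in the control and 383, 248 and 341 CPM in the knockdown. The groups did not overlap, though Smyca knockdown replicate 2 came close to the control (log2 fold change -0.59 ± 0.19 SE, adjusted p = 0.158, edgeR). With library totals in place of TMM, SLC7A1 overlapped. SLC7A11, the cystine importer, was at 51.8, 47.5 and 61.4 CPM in the control and 65.5, 21.3 and 55.8 CPM in the knockdown, with Smyca knockdown replicate 2 alone far below the other 5 libraries. The remaining log2 fold changes were 0.31 ± 0.28 SE for SLC38A2, a carrier of small neutral amino acids, 0.05 ± 0.40 SE for SLC1A4, which carries alanine, serine and cysteine, -0.03 ± 0.16 SE for SLC1A5, a glutamine carrier, and 0.10 ± 0.21 SE for XPOT. The libraries of all 4 genes overlapped.

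The 3 knockdown libraries were unlike each other over most of these genes. Smyca knockdown replicate 1 was the highest of the 3 in 30 of the 34 genes tested (32.9% of all genes) and replicate 2 the lowest in 29 (30.7% of all genes). Both held in 26 of the 34, beside 11.3% of all genes tested. The ratio of replicate 1 to replicate 2 was at least 2 in 18 of the 34, beside 3.95% of all genes, and its median was 2.05 over the 34 genes and 1.01 over all genes. This count was 17 to 19 under other normalizations and filters, chosen after seeing the data, and the share of all genes was 1.94% to 4.25%, or 13.0% with no filter beyond 1 count. The 34 genes are not independent of each other, and these shares describe 2 libraries, not a condition.

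**Figure D4:**
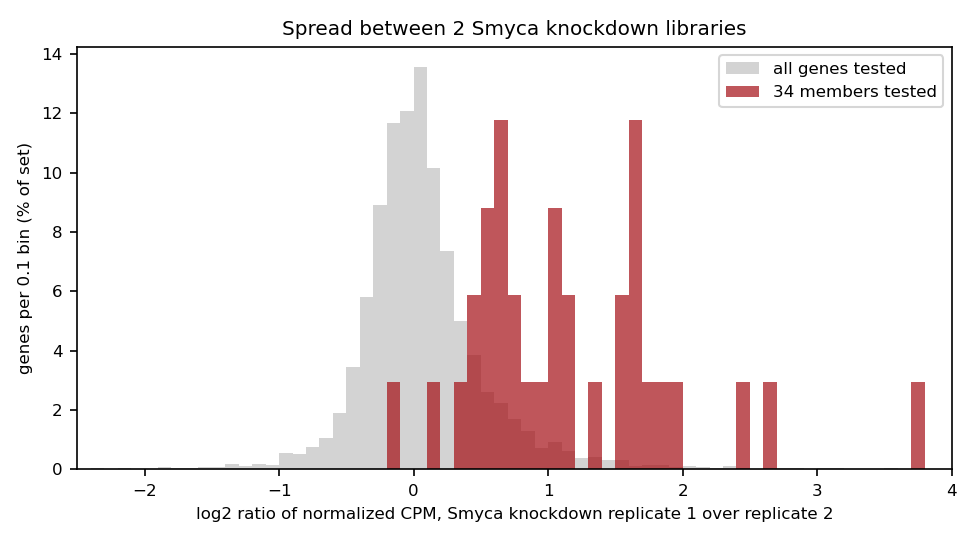
Share of genes (y axis, % of each set per bin of 0.1) by the log2 ratio of normalized CPM in Smyca knockdown replicate 1 over replicate 2 (x axis), in grey for all genes tested and in red for the 34 stress response genes. The grey distribution is centred near 0 and the red one is shifted to the right, with a median ratio of 2.05, and NUPR1 is the red bar farthest to the right at 13.3-fold.

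The highest control library exceeded the lowest by a median of 1.31-fold over the 34 genes and by 1.44-fold over all genes, whereas in the knockdown the medians were 2.10-fold and 1.37-fold. In 10 of the 34 the control range was above the all-gene median, among them NUPR1 (58.1-fold), ATF5 (2.47), ATF3 (2.11), PPP1R15A (1.99) and DDIT3 (1.89). The fold range was wider in the knockdown than in the control for 29 of the 34 genes, and for 44.6% of all genes. GPT2 was the tightest in the control, with a 1.06-fold range, and ALDH18A1 the tightest in the knockdown, with a 1.12-fold range.

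Measured against the control, the knockdown libraries lay on both sides. Smyca knockdown replicate 1 was above every control library in 18 of the 34 genes (26.5% of all genes), while replicate 2 was below every control library in 27 (31.6%) and replicate 3 in 22 (29.8%). In 12 genes replicate 1 was above and replicate 2 below all 3 controls (1.90% of all genes). These were ATF4, CHAC1, EIF4EBP1, GPT2, MTHFD2, PHGDH, PSAT1, SLC1A4, SLC3A2, SLC7A11, TRIB3 and XPOT. Without Smyca knockdown replicate 1, 20 of 34 genes separated with the control higher and 4 with the control lower, beside 17.7% and 17.3% of all genes in the same setting. Leaving out a library can keep or raise such counts and, apart from rescaling, cannot lower them.

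Genes beside the 35 in the same response were taken from lists chosen with earlier results of these data known. Of 19 other known ATF4 targets, 15 were higher and 4 lower in the control, 6 separated with the control higher and 0 with it lower (12.4% and 12.5% of all genes). None of the 19 was called by edgeR (0.0265% of all genes), and DESeq2 called 5 (5.64% of all genes). The unadjusted p was under 0.05 for 7, beside 2893 of all 15075 genes. The median log2 fold change of these 19 was 0.53. By fold change the largest were DDIT4, an mTORC1 inhibitor (2.35 ± 0.78 SE), and GDF15, a secreted stress signal (1.61 ± 0.27 SE). DDIT4 was at 1289, 853 and 112 CPM in the control and 211, 56.8 and 175 CPM in the knockdown. Its groups overlapped, with control replicates 1 and 2 alone high, while those of GDF15 did not. Among the 19, 10 had Smyca knockdown replicate 1 at least 2-fold above replicate 2 (3.95% of all genes), and the median of that ratio was 2.07.

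Upstream of ATF4, the 17 genes of the eIF2alpha kinases, their partners, eIF2, eIF2B and the phosphatase had a median ratio of replicate 1 to replicate 2 of 0.913. In 0 of the 17 was replicate 1 at least 2-fold above replicate 2 (3.95% of all genes). In 4 replicate 1 was the highest and replicate 2 the lowest of the 3 (11.3% of all genes). The difference from the stress response genes was not tested. By fold change 3 were higher and 14 lower in the control, 1 and 4 of them without overlap (12.4% and 12.5% of all genes). Neither edgeR nor DESeq2 called any of the 17 (0.0265% and 5.64% of all genes). The unadjusted p was under 0.05 for 4, beside 2893 of all 15075 genes. The largest differences were in GCN1, a partner of the amino acid sensing kinase GCN2 (-0.60 ± 0.19 SE), and EIF2AK3, the endoplasmic reticulum kinase PERK (0.56 ± 0.22 SE). The 20 cytosolic tRNA synthetases, several of which are ATF4 targets, were divided evenly, 10 higher and 10 lower, with a median log2 fold change of 0.0022. Without overlap were 1 of the former and 2 of the latter (12.4% and 12.5% of all genes). Neither edgeR nor DESeq2 called any of the 20 (0.0265% and 5.64% of all genes). The unadjusted p was under 0.05 for 2, beside 2893 of all 15075 genes. None of the 20 had replicate 1 at least 2-fold above replicate 2 (3.95% of all genes). Even so, 12 had replicate 1 highest and replicate 2 lowest (11.3% of all genes). CARS1 (0.54 ± 0.23 SE) and FARSA (-0.52 ± 0.17 SE) had the largest fold changes.

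The chaperones and other targets of XBP1 and ATF6, the other branches of the unfolded protein response, numbered 16 tested, with 9 higher and 7 lower in the control, 3 of the former without overlap (12.4% of all genes) and 1 with replicate 1 at least 2-fold above replicate 2 (3.95% of all genes). HERPUD1 (0.93 ± 0.29 SE), which is also in the list of ATF4 targets, and EDEM1 (0.61 ± 0.19 SE) had the largest fold changes. Of 8 folate and glycine cycle enzymes outside the group, 3 were higher and 5 lower, 3 of the latter without overlap (12.5% of all genes), with GLDC at 0.63 ± 0.63 SE and MTHFD1 at -0.54 ± 0.16 SE. Of 16 other C/EBP and ATF family genes tested, 7 were higher and 9 lower, 1 of each without overlap (12.4% and 12.5% of all genes). BATF2 was at 1.57 ± 0.43 SE and CEBPA at -0.55 ± 0.46 SE. In these 3 lists edgeR called 0 genes (0.0265% of all genes). DESeq2 called 1 chaperone list gene, 0 folate enzymes and 1 C/EBP or ATF gene (5.64% of all genes). The unadjusted p was under 0.05 for 3, 2 and 1 genes, beside 2893 of all 15075 genes.

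**Figure D5:**
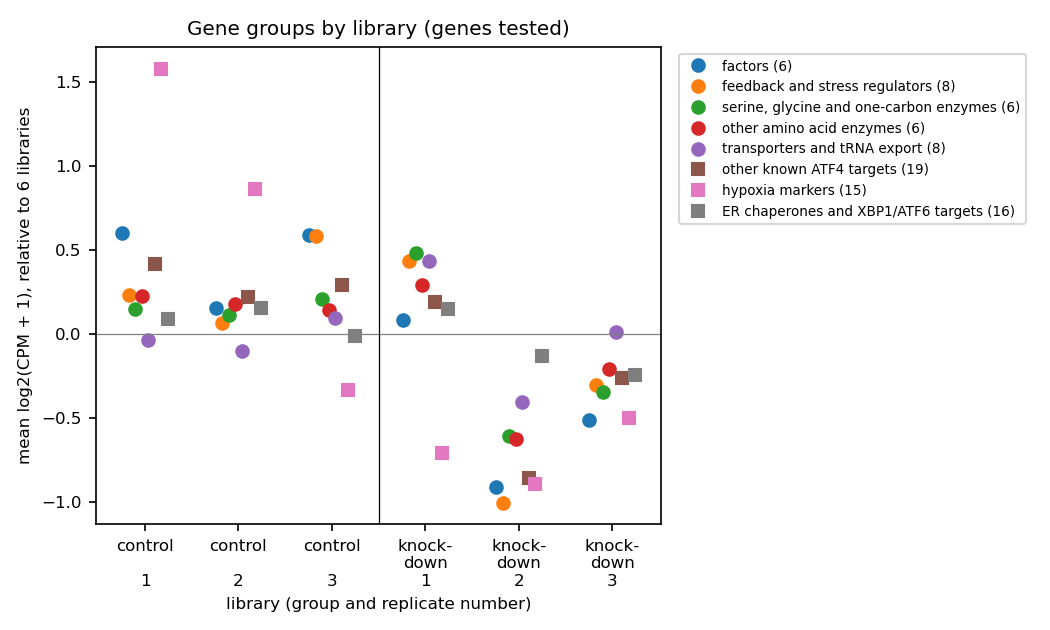
Mean log2(normalized CPM + 1) of each gene group in each library, relative to the 6 libraries (y axis), for the 5 role groups of the stress response genes (circles), and for 3 other lists (squares), with the number of genes tested in the legend. The circles lie lower in Smyca knockdown replicate 2 than in replicate 1 in all 5 groups, while the pink squares of the hypoxia markers are high in control replicates 1 and 2 and low in the other 4 libraries.

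By role, the mean log2 level relative to the 6 libraries ranked the knockdown libraries alike in all 5 groups, with replicate 1 the highest and replicate 2 the lowest. For the factors it was 0.60, 0.15 and 0.59 in the control and 0.085, -0.91 and -0.51 in the knockdown. For the feedback and stress regulators it was 0.23, 0.064 and 0.58 in the control and 0.43, -1.004 and -0.31 in the knockdown. Without NUPR1, the value of control replicate 3 was 0.23 in place of 0.58, and those of the knockdown were 0.36, -0.96 and -0.29. The transporters and XPOT spread the least, at -0.034, -0.10 and 0.094 in the control and 0.44, -0.41 and 0.0087 in the knockdown.

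A marker list moved with the groups in another pattern. All 15 hypoxia markers were higher in the control by fold change, 9 without overlap (12.4% of all genes). None was called by edgeR (0.0265% of all genes), and DESeq2 called 10 (5.64% of all genes). The unadjusted p was under 0.05 for 12, beside 2893 of all 15075 genes. The mean relative log2 level of these markers was 1.58, 0.86 and -0.34 in the control and -0.71, -0.89 and -0.50 in the knockdown. Among the stress response genes that separated, DDIT3, PPP1R15A and CEBPB were also highest in control replicate 1 and, within the control, lowest in replicate 3, whereas ATF3 and ALDH1L2 were highest in control replicate 3. The part of the culture state marked by the hypoxia genes in these differences was not tested. In 2 of the 15 hypoxia markers was Smyca knockdown replicate 1 at least 2-fold above replicate 2 (3.95% of all genes).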

How the data were processed

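RNA-seq of 3 control and 3 Smyca knockdown libraries of MDA-MB-231 cells was used. The authors removed rRNA, made strand-specific paired-end libraries, aligned them with TopHat2 2.0.12 (genome GRCh38) and obtained gene counts from HTSeq. The annotation release and strand setting were not given in the sources used here. The authors deposited raw counts per gene and, beside them, FPKM values, which were used for gene lengths and file checks. In control replicate 2 the FPKM column followed the counts in 1.62% of genes (100% in the other libraries). It gave 16759253 whole reads, with 100% of values under 50 reads whole within 0.05 read. Their log2 values correlated across 13476 genes at 0.995 with the counts of control replicate 3 and at 0.957 with those of control replicate 2, whose counts were kept.

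Counts were tested with edgeR 4.0.16 in R 4.3.3 (TMM, filterByExpr, quasi-likelihood test of control over knockdown, Benjamini-Hochberg adjustment over 15075 genes). GENCODE gene symbols matched 57532 of 58302 genes. Beyond counting noise, libraries varied by 25.2% (27.8% in the control, 22.0% in the knockdown). P-values weigh the group difference against the variation between these libraries, which is estimated with information shared across genes. Alternatives were DESeq2 1.42.0, other normalizations and filters, the replicate block, each library left out, and the recovered reads. On simulated counts of this comparison, edgeR recovered 100% of 200 genes set to a log2 fold change of 2, with 6 false calls among 14832 genes, and DESeq2 recovered 99.5% with 22 false calls. Same-numbered control and knockdown libraries deviated together with correlations of 0.054, 0.094 and 0.021. The 35 genes and the lists were chosen with earlier results of these data known. Values in every library were given for ATF4 and for each gene whose groups did not overlap, by rule. CHAC1, TRIB3, SESN2, NUPR1, PHGDH, PSAT1, CBS, ASNS and SLC7A11 were added after their values were seen. Promoters were taken from RefSeq.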

Additional observations from a re-analysis of the deposited data

How the results depend on the processing

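With 3 libraries a group and about 25.2% variation beyond counting noise, small fold changes are not resolved. The number of genes called moved with the tool. Of 15075 genes it was 4 with the settings used, 8 with library totals and 850 with DESeq2. It was 916 of 30409 genes with no filter beyond 1 count and 10 of 15190 with the reads recovered for control replicate 2. Leaving out each library in turn gave 0 to 1628, the highest without control replicate 3. Of the stress response genes, 0 were called (0.0265% of all genes). With no filter 5 of 35 were called, beside 916 of 30409 genes, and with DESeq2 4 of 34, beside 5.64% of all genes. With a library left out it was 0 to 2, the 2 being DDIT3 and PPP1R15A without control replicate 3, beside 10.5% of all genes. With library totals, 8 of the 10 genes without overlap remained, PYCR1 and SLC7A1 overlapped and VLDLR separated, which gives 7 higher and 2 lower in the control beside 16.1% and 8.46% of all genes. With a library left out, a count that can hardly fall, they were 10 to 24, the highest without Smyca knockdown replicate 1. The share of all genes without overlap also moved, from 24.8% to 29.4% to 49.2% with a library left out, the highest without control replicate 3 and 34.9% without Smyca knockdown replicate 1. With the replicate block, in a paired fit by number, 0 genes and 0 stress response genes were called, 2568 genes had an unadjusted p under 0.05, and the median was 0.32. The numbers were not shown to pair the libraries. Among single genes, 35 of 441 values in 13 genes changed sign, and none of those 13 was called. The cause was not tested. With library totals the log2 fold change was 0.013 for CHAC1, 0.033 for GPT2, 0.052 for SLC3A2 and 0.031 for SLC1A5. SLC3A2 was 0.0029 with at least 10 counts in every library and 0.058 with the recovered reads, where MTHFD2 was -0.0089. With the block, CHAC1 was 0.27 and SLC3A2 0.012. With a library left out, the ranges were -0.48 to 0.83 for CHAC1, -0.018 to 0.70 for PHGDH, -0.31 to 0.36 for PSAT1, -0.40 to 0.13 for PSPH, -0.091 to 0.51 for MTHFD2, -0.22 to 0.12 for GPT2, -1.97 to 3.24 for NUPR1, -0.18 to 0.47 for SLC7A11, -0.16 to 0.20 for SLC3A2, -0.14 to 0.060 for SLC1A5, -0.27 to 0.70 for SLC1A4, -0.048 to 0.31 for XPOT and -0.095 to 0.30 for EIF4EBP1. Of the 21 stress response genes that kept their sign, 13 moved by over 1.5 times in log2 fold change when 1 library was left out. The ranges were 0.074 to 0.40 for ATF4, 0.25 to 0.83 for ATF5, 0.68 to 1.62 for CEBPB, 0.19 to 0.64 for CEBPG, 0.019 to 0.53 for TRIB3, 0.63 to 1.94 for ASNS, 0.081 to 0.40 for SHMT2, 0.45 to 1.504 for CBS, 0.19 to 1.13 for SESN2, 0.060 to 0.55 for STC2, 0.51 to 1.33 for VLDLR, -0.86 to -0.37 for SLC7A5 and 0.048 to 0.59 for SLC38A2.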
